A study of Mus musculus with 768 samples.

Results

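Described here are 9 genes of MHC class I antigen presentation, B2m, H2-K1, H2-D1, H2-Q2, H2-T23, Tap1, Tap2, Tapbp and Nlrc5, in single thymocytes of the mouse. They were taken from the count table by name, and all 9 were found among its 23127 genes. The table covers 768 cells sorted from thymus of C57BL/6 mice of 6 to 8 weeks, on 8 plates of 96 cells, each plate being 1 library. The genotypes are wild type (WT), Tcf7-/-, Vav-cre; Tcf7fl/fl and Lck-cre; Tcf7fl/fl. TCF1, the product of Tcf7, is a DNA-binding factor needed for T cells to develop. Vav-cre acts in blood cells in general and Lck-cre from the T-cell precursor stage, so the floxed alleles are meant to be lost in those cells only. Both gates held CD45+ cells that lacked lineage markers, CD4 and CD8: DN1 was CD25- CD44+, and DN2-3 was CD25+. Each genotype has 1 plate per gate, except Lck-cre, which has 2 plates of DN2-3 and none of DN1. The labels name no animals and no sex.

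MHC class I molecules show peptides from inside the cell to T cells and engage receptors of natural killer (NK) cells. A heavy chain pairs with the light chain beta-2 microglobulin, and the pair is loaded with peptides that the proteasome has cut and the TAP transporter has moved into the endoplasmic reticulum. Transcription of most of these genes is raised by interferon and by NLRC5, a transactivator that acts at class I promoters. Cortical thymocytes are known to carry less class I on their surface than mature lymphocytes.

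B2m encodes the light chain. H2-K1 and H2-D1 encode the classical heavy chains that present peptides to CD8 T cells. H2-T23 encodes Qa-1, a nonclassical heavy chain read by NK receptors of the CD94 and NKG2 family, and H2-Q2 encodes a little-studied nonclassical heavy chain of the Q region. Tap1 and Tap2 encode the subunits of the peptide transporter, and Tapbp encodes tapasin, which holds empty class I molecules at the transporter. In the GENCODE annotation of mm10 all are protein-coding. B2m lies on chromosome 2 (122147686 to 122153083, plus strand) and Nlrc5 on chromosome 8 (94434356 to 94527272, plus strand). The other 7 lie in the MHC on chromosome 17. From the centromere side these are Tapbp (33915899 to 33929292, plus), H2-K1 (33996017 to 34000347, minus), Tap1 (34187553 to 34197225, plus) and Tap2 (34203527 to 34216321, plus). H2-D1 (35262730 to 35267499, plus), H2-Q2 (35342242 to 35346762, plus) and H2-T23 (36029773 to 36032855, minus) follow.

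Promoter sequence was given for 7 of the 9 genes (RefSeq, GRCm38.p6, from 250 bases before the start to 50 after it). The start is that of RefSeq and need not be where the GENCODE gene begins. The H2-D1 and Tapbp windows lie inside the GENCODE spans given above. Tap2 and Nlrc5 had none. The promoters of B2m, H2-K1, H2-D1 and H2-Q2 are shown because the first 3 were all higher in DN1, whereas H2-Q2 was not. Capitals mark letters of 4 motifs searched on both strands: GGGGATTCC, the core of the NF-kappa-B site of class I promoters, GAAANNGAA, found in interferon response elements, TGACG, the core of CREB and ATF sites, and CCAAT. The coordinates are chr2:122147437-122147736 (plus strand) for B2m, chr17:34000298-34000597 (minus) for H2-K1, chr17:35262844-35263143 (plus) for H2-D1 and chr17:35342057-35342356 (plus) for H2-Q2.
B2m: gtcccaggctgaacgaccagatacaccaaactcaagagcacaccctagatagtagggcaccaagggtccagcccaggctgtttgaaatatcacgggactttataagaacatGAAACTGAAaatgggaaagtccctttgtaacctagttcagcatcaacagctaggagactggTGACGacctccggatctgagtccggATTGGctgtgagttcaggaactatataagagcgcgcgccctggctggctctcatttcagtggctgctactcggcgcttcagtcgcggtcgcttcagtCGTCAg
H2-K1: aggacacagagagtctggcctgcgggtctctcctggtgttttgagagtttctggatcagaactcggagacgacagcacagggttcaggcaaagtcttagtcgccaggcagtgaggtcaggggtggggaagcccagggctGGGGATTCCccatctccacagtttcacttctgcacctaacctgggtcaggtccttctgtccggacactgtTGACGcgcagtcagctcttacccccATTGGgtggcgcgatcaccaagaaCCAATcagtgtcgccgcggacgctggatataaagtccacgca
H2-D1: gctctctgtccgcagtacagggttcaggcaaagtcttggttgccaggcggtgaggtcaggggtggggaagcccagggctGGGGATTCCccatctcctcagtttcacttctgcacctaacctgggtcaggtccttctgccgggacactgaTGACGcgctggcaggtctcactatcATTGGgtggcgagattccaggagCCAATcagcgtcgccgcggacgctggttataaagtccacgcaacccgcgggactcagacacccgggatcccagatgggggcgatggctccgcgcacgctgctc
H2-Q2: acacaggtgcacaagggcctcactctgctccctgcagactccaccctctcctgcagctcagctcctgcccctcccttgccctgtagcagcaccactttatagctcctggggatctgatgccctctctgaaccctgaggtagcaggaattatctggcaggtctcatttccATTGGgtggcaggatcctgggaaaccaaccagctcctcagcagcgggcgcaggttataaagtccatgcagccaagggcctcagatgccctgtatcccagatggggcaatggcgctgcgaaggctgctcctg
GGGGATTCC was found in H2-K1 (position -111 from the start) and H2-D1 (position -171) and in no other member's window, against 0.259% of 27025 promoters of the same length. GAAANNGAA was found in B2m and H2-T23, 2 of 7, against 8.57% of all promoters. Interferon response elements of other forms were not searched for, so windows without a match cannot be said to lack one. This holds for the H2-K1 and H2-D1 windows, among others. TGACG was found in B2m, H2-K1, H2-D1 and Tap1, 4 of 7, against 21.02% of all. CCAAT was found in 7 of 7, against 37.9% of all, and is the only one of the 4 motifs in the H2-Q2 window. The H2-D1 and H2-K1 windows come from paralogous genes, so their matches are not independent, and RefSeq gives 2 starts for H2-K1, of which 1 is shown. Positions depend on the start used, so those of H2-K1 and H2-D1 cannot be compared directly.

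A cell was used if 1000 genes or more were detected, which left 675 of 768, between 58 (Vav-cre DN1) and 96 (Tcf7-/- DN1) per library. Counts summed over kept cells ranged from 1547512 in Vav-cre DN1 to 8371808 in Tcf7-/- DN2-3, and levels are given as CPM, the library's counts of a gene scaled to a common total, with 95% exact Poisson intervals. These intervals cover counting error only, and amplified reads are not independent molecules. Tcf7 itself had 862 CPM in WT DN2-3 and 122 CPM in Tcf7-/- DN2-3, but 964 CPM in the library labelled Vav-cre DN2-3. Those labelled Lck-cre had 762 and 658 CPM. In DN1 it had 134 CPM in WT, 98.6 CPM in Tcf7-/- and 368 CPM in Vav-cre. The deleted exons are not given in the sources used here, so genotype names below are those of the labels. The labels of the Tcf7-/- cells are laid out differently and name fewer genome builds than the rest, so a batch and the genotype cannot be told apart there. With 1 library per genotype and gate, except for the 2 Lck-cre plates, no test between groups was run. The spread between both Lck-cre plates is the only one between like libraries. Over 3712 genes at 50 CPM or more these plates differed by a median of 0.25 on the log2 scale, and 5% of genes by more than 0.85. The 9 genes differed between the plates by at most 0.59 (H2-Q2), with B2m at 0.38, H2-K1 at 0.34, H2-D1 at 0.39, H2-T23 at 0.08, Tap1 at -0.19, Tap2 at -0.57, Tapbp at -0.46 and Nlrc5 at 0.15 (plate 2 minus plate 1). In summed counts, fewer cells with a transcript and less transcript per cell cannot be told apart, so shares of cells are given where they bear on a result.

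The gates hold different cells, which bears on every comparison between them. The 10 NK receptor genes fixed as markers summed to 4774 CPM in WT DN1, 1271 CPM in Tcf7-/- DN1 and 940 CPM in Vav-cre DN1, and to between 0 and 20.9 CPM in the 5 DN2-3 libraries, where 3 to 10 of the 10 genes were at 0. Innate lymphoid markers (9 genes) summed to 3544, 3567 and 6284 CPM in DN1 and to 207 to 409 CPM in DN2-3. Dendritic cell markers (8 genes, MHC class II among them) summed to 1980, 557 and 2611 CPM in DN1 and to 16.7 to 29.7 CPM in DN2-3. Early progenitor markers (8 genes, Kit and Cd34 among them) summed to 91.1, 1074 and 540 CPM in DN1, with Cd34 and Mpo at 0 in WT, and to 517.5 CPM in WT, 36.7 CPM in Tcf7-/-, 91.3 CPM in Vav-cre, and 209 to 272 CPM in the Lck-cre plates of DN2-3, so that WT had more of them in DN2-3 and the mutant genotypes with both gates more in DN1. All 86 WT, 95 of 96 Tcf7-/- and 26 of 58 Vav-cre DN1 cells had at least 2 counts of a CD3 gene. The DN2-3 thymocyte markers Ptcra, Rag1, Dntt, Il2ra and Notch3 summed to 2162 to 3800 CPM in DN2-3 and to 30.4, 344 and 207 CPM in DN1. The part of this difference in cell type in the results between gates was not tested.

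**Figure D1:**
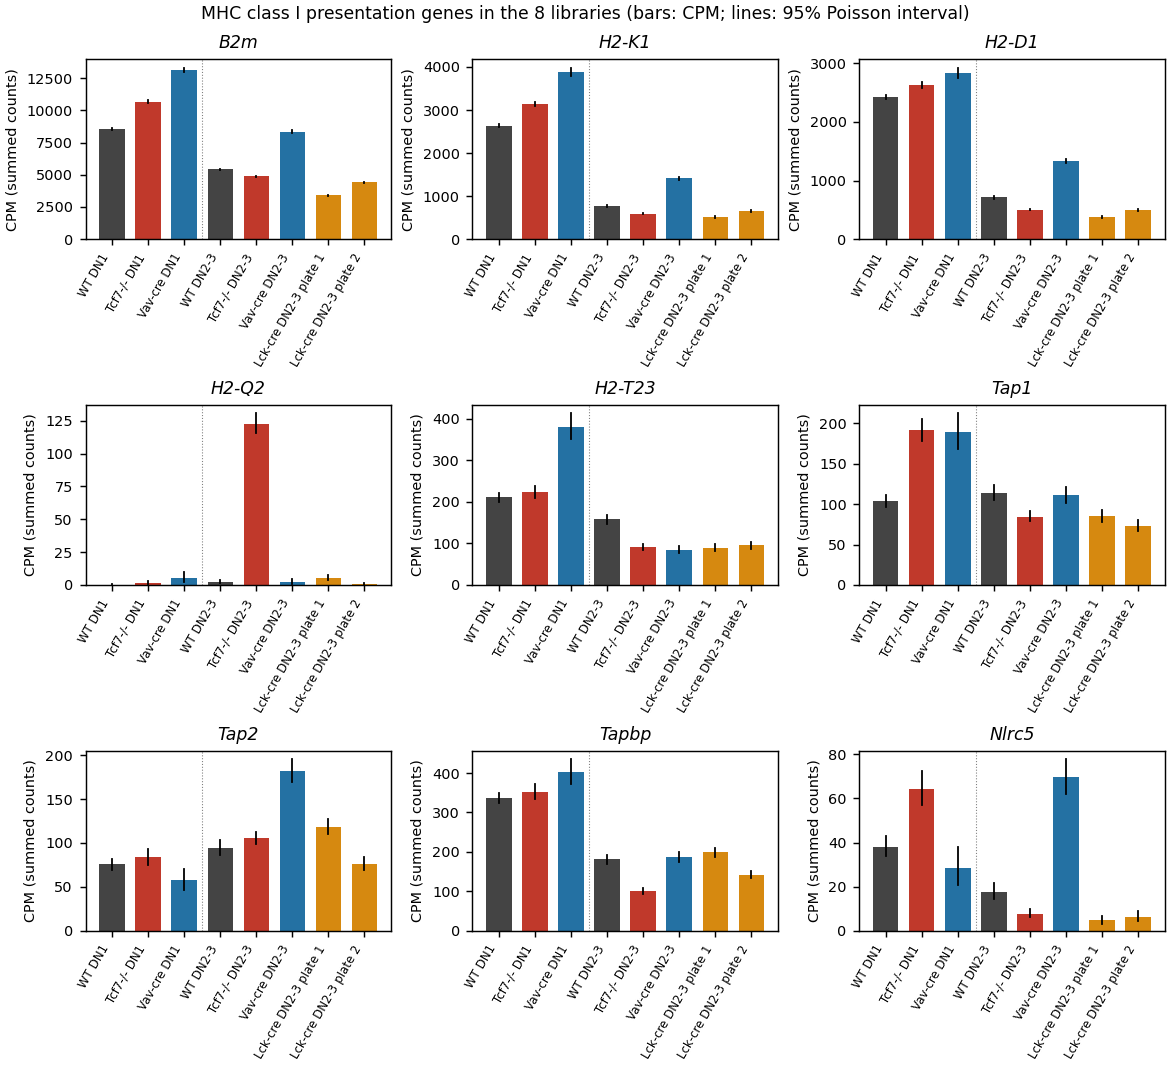
Summed level of each of the 9 genes in the 8 libraries, in CPM on linear axes that start at 0, with 95% Poisson intervals as lines and a dotted line between the DN1 and DN2-3 gates. H2-K1 and H2-D1 are at least 2430 CPM in the 3 DN1 libraries and at most 1415 CPM in the 5 DN2-3 libraries, and H2-Q2 stands at 123 CPM in Tcf7-/- DN2-3 alone.

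The light chain and the classical heavy chains were lower in the DN2-3 gate than in the DN1 gate in every genotype that had both. B2m had 8568, 10668 and 13128 CPM in WT, Tcf7-/- and Vav-cre DN1, and 5415, 4884 and 8349 CPM in the same genotypes of DN2-3, with 3396 and 4423 CPM in Lck-cre. Every kept cell of every library had a B2m count. H2-K1 had 2638, 3139 and 3884 CPM in DN1, then 778 (WT), 596 (Tcf7-/-), 1415 (Vav-cre), 513 and 654 CPM (Lck-cre) in DN2-3. The 2 sets of libraries do not overlap for either gene, though B2m in Vav-cre DN2-3, at 8349 CPM, was close to WT DN1. H2-D1 followed H2-K1, with 2430, 2630 and 2840 CPM in DN1 and 713, 505, 1338, 384 and 505 CPM in the same order of DN2-3 libraries. Of the 9 members, 5 (B2m, H2-K1, H2-D1, H2-T23 and Tapbp) had every DN1 library above every DN2-3 library, a pattern that 13.1% of 10212 genes showed.

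Fold differences between gates were larger for the classical heavy chains than for B2m. In WT, H2-K1 was 3.39-fold and H2-D1 3.41-fold lower in DN2-3 (log2 ratios of -1.75 and -1.75, all log2 ratios being of CPM + 10), and B2m was 1.58-fold lower (-0.66). In Tcf7-/- the 3 genes were 5.26-fold, 5.21-fold and 2.18-fold lower (-2.38, -2.36 and -1.13). In Vav-cre they were 2.74-fold, 2.12-fold and 1.57-fold lower (-1.45, -1.08 and -0.65). Among members at 10 CPM or more in a library compared, some differed by a larger fold than H2-K1 in a single genotype. In Tcf7-/- Nlrc5 was 8.30-fold lower and H2-Q2 85.2-fold higher. In Vav-cre H2-T23 was 4.47-fold lower and Tap2 3.18-fold higher. On the scale of CPM + 10 Nlrc5 in Tcf7-/- was at -2.07, nearer to 0 than H2-K1. The counting intervals of the H2-K1 fold, written as DN2-3 over DN1, were 0.285 to 0.305 in WT, 0.184 to 0.196 in Tcf7-/- and 0.352 to 0.378 in Vav-cre. The lower sums were carried by cells in general: the median cell had 2925, 2610 and 3644 CPM of H2-K1 in DN1 and 631, 482, 1379, 391.8 and 547 CPM in DN2-3. H2-K1 was still detected in 93.4% to 100% of the cells of every DN2-3 library. With each cell thinned to 10000 counts, H2-K1 had 2815 to 4416 CPM in DN1 and 494 to 1608 CPM in DN2-3.

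**Figure D2:**
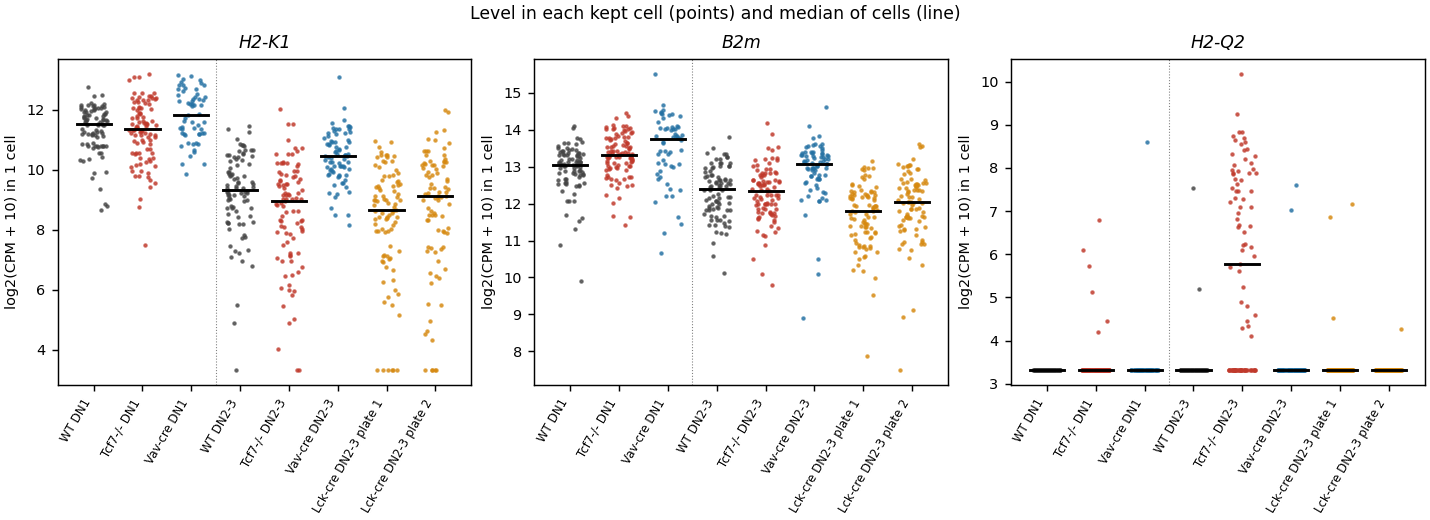
Level of H2-K1, B2m and H2-Q2 in each kept cell, as log2(CPM + 10), with 1 point per cell and a line at the median of the cells of a library, and a dotted line between the gates. H2-K1 is shifted as a whole between gates, with medians of 2610 to 3644 CPM in DN1 and 391.8 to 1379 CPM in DN2-3, whereas H2-Q2 has counts in 57 of 93 Tcf7-/- DN2-3 cells and in at most 6 cells of any other library.

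Among the nonclassical and loading genes, H2-T23 and Tapbp were lower in DN2-3 as the heavy chains were, and the transporter genes were not in all genotypes. H2-T23 had 210, 224 and 381 CPM in DN1 and 158, 91.5, 85.1, 89.98 and 95.4 CPM in WT, Tcf7-/-, Vav-cre and both Lck-cre libraries of DN2-3, which puts the 4 libraries of mutant genotypes of DN2-3 below WT. Tapbp had 336, 353 and 403 CPM in DN1 and 181, 101, 188, 199 and 142 CPM in DN2-3. Tapasin transcripts were thus lower by 1.86-fold in WT, 3.50-fold in Tcf7-/- and 2.15-fold in Vav-cre between gates. Tap1 had 103, 191 and 189 CPM in DN1 and 114, 84.7, 111, 84.8 and 73.3 CPM in DN2-3, so that its levels in the gates overlap. Tap2 had 75.5, 83.9 and 57.5 CPM in DN1 and 94.3, 105, 183, 118 and 76.4 CPM in DN2-3, and in each genotype with both gates it was higher in DN2-3. These Tap2 ratios were 0.29 in WT, 0.30 in Tcf7-/- and 1.51 in Vav-cre on the log2 scale, of which the first 2 are smaller than its difference of 0.57 between Lck-cre plates. Tap1 and Tap2, the paired subunits of 1 transporter, therefore differed in direction between gates in Tcf7-/- (-1.09 and 0.30) and in Vav-cre (-0.72 and 1.51). Over all alternatives run, Tap1 stayed below 0 and Tap2 above 0 in both of these comparisons, but some values came close to it. Tap1 in Vav-cre reached -0.10 and Tap2 in Tcf7-/- reached 0.04, so the direction of these 2 values is not firm.

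Between the WT gates, 2 of 9 members were lower in DN2-3 by 2-fold or more and 0 were higher, where 11.7% of 8702 genes at 10 CPM or more were lower and 16.3% were higher. The median of the 9 log2 ratios was -0.66, against 0.15 over all those genes. In Tcf7-/- 7 of 9 were lower and 1 higher (H2-Q2), against 17.1% and 8.14% of 8599 genes, with a median of -1.20 against -0.12. In Vav-cre 4 of 9 were lower and 2 higher (Tap2 and Nlrc5), against 24.7% and 15.9% of 9059 genes, with a median of -0.72 against -0.18. Scaling by TMM factors shifted these 3 comparisons by -0.19, 0.14 and 0.18 on the log2 scale, and Tap1 in WT, at 0.13, then lay on the other side of 0, as it did after thinning. In Tcf7-/-, B2m and Tap1 fell under 2-fold in 4 alternatives each: with TMM factors (-0.99 and -0.96), equal weights (-0.96 and -0.66), thinning (-0.997 and -0.78) and the deposited log2 values (-0.95 and -0.64). In Vav-cre H2-D1 and Tapbp were under it with TMM factors (-0.90 and -0.89) and with at least 2000 genes per cell (-0.94 and -0.87), and Tapbp was at -0.25 with NK receptor-positive DN1 cells only. Nlrc5 in Vav-cre was under it with equal weights (0.88), thinning (0.42) and the deposited values (0.83), and lay on the other side of 0 with receptor-positive DN1 cells only (-0.60). The 5 calls of H2-K1 or H2-D1 other than that of H2-D1 in Vav-cre held in every alternative.

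**Figure D3:**
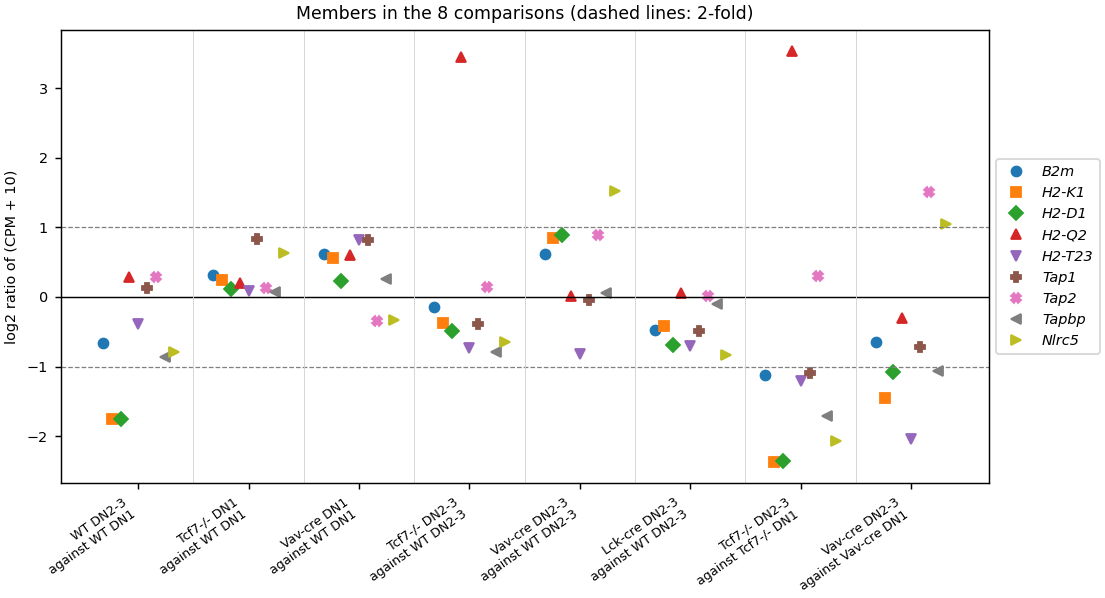
Log2 ratio of (CPM + 10) of each of the 9 genes in the 8 comparisons, with dashed lines at 2-fold. For Lck-cre each point is the mean of 2 plates. H2-K1 and H2-D1 are at -1.75 in the WT gate comparison and below -2.3 in that of Tcf7-/-, and H2-Q2 stands apart at 3.44 and 3.54.

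Within the DN1 gate no member was 2-fold apart between genotypes on the scale of CPM + 10. In the library labelled Tcf7-/- all 9 log2 ratios against WT DN1 were above 0, with a median of 0.19 against 0.07 over all genes, and the highest were Tap1 (0.83) and Nlrc5 (0.63). The library labelled Vav-cre had 7 of 9 above 0, with a median of 0.56 against 0.13, led by H2-T23 (0.83), Tap1 (0.81) and B2m (0.62). No member was called in either comparison, where 10.4% of 8579 genes were called higher and 5.34% lower in Tcf7-/-, and 18% of 8798 genes higher and 9.64% lower in Vav-cre. TMM scaling shifted both by -0.09 and -0.20, after which H2-T23 and Tapbp in Tcf7-/- were on the other side of 0. They were also there with equal weights and the deposited log2 values, Tapbp was after thinning, and Tap2 was with counts of 1 to 5 set to 0 (-0.13) or receptor-positive cells only (-0.05). In Vav-cre DN1, the shallowest library, 1 cell held 29.7% of the Tap1 counts, and the median over members was 0.17 when the highest cell of each gene was left out.

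The DN1 genotypes also differed in how many cells carried NK receptors, namely 83 of 86 WT cells, 53 of 96 Tcf7-/- cells and 12 of 58 Vav-cre cells, taking cells with at least 2 counts in at least 2 of the 10 receptor genes as positive. In the mutant labels the summed levels of the light chain and the classical heavy chains differed little between both kinds of cell. In Tcf7-/- B2m had 10586 CPM in receptor-positive and 10797 CPM in receptor-negative cells, H2-K1 had 3325 and 2845 CPM, and H2-D1 had 2546 and 2762 CPM. In Vav-cre the same pairs were 13345 and 13075, 3684 and 3933, and 2701 and 2874 CPM. These Vav-cre pairs depended on single cells among the 12 positive ones. Without the highest cell of each class they were 17779 and 12598, 4885 and 3867, and 3627 and 2790 CPM, higher in receptor-positive cells. In Tcf7-/- the pairs were then 10861 and 10281, 3385 and 2642, and 2610 and 2644 CPM. In WT only 3 cells were receptor-negative, with 5535 CPM of B2m and 1441 CPM of H2-D1 against 8673 and 2464 CPM in the 83 positive cells, and with H2-K1 at 2480 against 2644 CPM. Nlrc5 was higher in receptor-positive cells of both mutant labels: 94 (82.5 to 107) against 17.9 (12.01 to 25.8) CPM in Tcf7-/-, and 111 (76.9 to 155) against 8.06 (3.86 to 14.8) CPM in Vav-cre. These counts came from 21 of 53 and 5 of 43 Tcf7-/- cells, at median depths of 41350 and 24100 counts. In Vav-cre they came from 3 of 12 and 5 of 46 cells, with 55.9% of the receptor-positive counts in 1 cell, so that the Vav-cre split rests on few cells. Without the highest cell of each class, an alternative chosen after the values were seen, Nlrc5 had 52.5 against 4.07 CPM there and 76.8 against 10.3 CPM in Tcf7-/-. The 83 WT cells had 39.3 CPM of Nlrc5, and the 3 receptor-negative WT cells held 1 count. Within receptor-positive cells alone, Nlrc5 was therefore higher in both mutant labels than in WT (1.08 and 1.30 on the log2 scale), whereas over all cells the Vav-cre ratio was -0.32. Tap1 had 346 against 151 CPM in Vav-cre, but 82.1% of the receptor-positive counts came from 1 cell, and without the highest cell of each class it had 103.5 against 115 CPM. In Tcf7-/- it had 191.5 against 191.1 CPM. H2-T23 and Tapbp had the reverse split in the summed counts of Vav-cre, at 203 against 425 CPM and 225 against 446 CPM. Neither had one of that size in Tcf7-/- (218 against 233 CPM, and 340 against 373 CPM). The median Vav-cre cell had 313 against 315 CPM of H2-T23, so no such split, and 31.6 against 355 CPM of Tapbp. In 1 cell lay 52.2% of the receptor-positive Tapbp counts. Without the highest cell of each class, H2-T23 had 173 against 388.5 CPM and Tapbp 112 against 400 CPM. With receptor-positive cells only, 3 members were past 2-fold in Vav-cre against WT, H2-Q2 among them at 8 counts from 1 cell. The others were Tap1 at 1.62 and Nlrc5 at 1.30, both resting on the single cells described above for each gene.

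**Figure D4:**
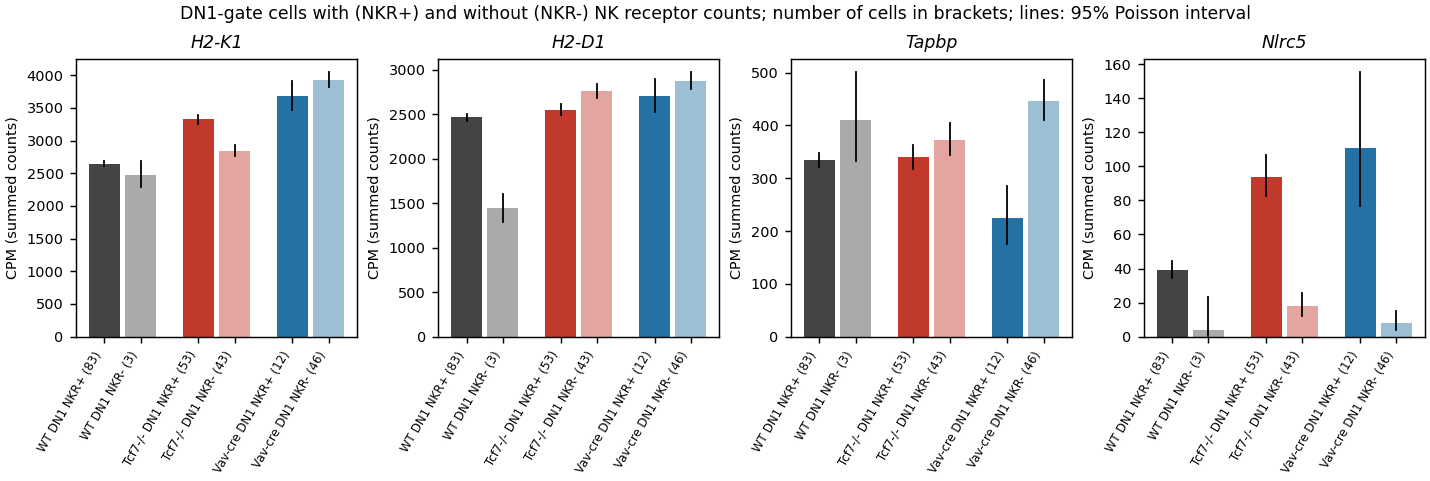
CPM of H2-K1, H2-D1, Tapbp and Nlrc5 in DN1-gate cells with (NKR+) and without (NKR-) NK receptor counts, by genotype label, with the number of cells in brackets and 95% Poisson intervals as lines. Nlrc5 is at 39.3, 94 and 111 CPM in receptor-positive cells and at 4.19, 17.9 and 8.06 CPM in receptor-negative cells. H2-K1 shows no split of that size in summed counts.

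Within the DN2-3 gate the library labelled Vav-cre stood above the others for the light and classical heavy chains. Against WT DN2-3 it was 1.54-fold higher in B2m, 1.82-fold in H2-K1 and 1.88-fold in H2-D1 (log2 ratios of 0.62, 0.85 and 0.90). Tap2 was 1.94-fold higher (0.89), while Tap1 and Tapbp were at 0.97 and 1.04 times WT, and H2-T23 was 1.86-fold lower (-0.82). The only member past 2-fold was Nlrc5, at 69.6 CPM (62.01 to 77.9) against 17.7 CPM (14.2 to 21.8), a log2 ratio of 1.52. Nlrc5 was detected in 40.8% of the Vav-cre cells (29.7% to 52.7%) and in 14.8% of the WT cells (8.11% to 23.9%), and after thinning to 10000 counts in 24.6% and 6.25%. A single cell held 39.02% of the Nlrc5 counts in Vav-cre and another held 53.4% in WT, and the log2 ratio was 1.54 without those cells. One of 9 members higher and 0 lower compare with 5.77% and 10.5% of 8357 genes, and the median of the members was 0.62 against -0.14 over all genes. TMM scaling added 0.17 to this comparison and took H2-K1 (1.02), H2-D1 (1.07) and Tap2 (1.05) past 2-fold, for a count of 4 members, and put Tap1 on the other side of 0. Thinning did so for Tap1 (0.24) and for Tapbp (-0.54), which was also below 0 with equal weights (-0.22) and the deposited values (-0.22). As a yardstick, 5% of genes differed by more than 0.85 between the Lck-cre plates, so that H2-K1 lies at this limit and H2-D1 and Tap2 just above it.

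The higher class I level in that library was seen in both of its Ptcra classes, a split by the pre-T-cell receptor gene chosen after the values were seen. H2-K1 had 1438 CPM in 50 Ptcra-positive and 1349 CPM in 26 Ptcra-negative Vav-cre cells, against 781 and 776 CPM in 43 and 45 WT cells. H2-D1 had 1387 and 1194 CPM against 669 and 757 CPM. Nlrc5 had 85.1 and 24.3 CPM against 21.4 and 14.02 CPM, and was detected in 44% and 34.6% of those Vav-cre cells against 13.95% and 15.6% of the WT cells. In the Ptcra-positive classes 1 cell held 42.8% of the Vav-cre and another 88.7% of the WT counts, and without them Nlrc5 had 49.96 against 2.46 CPM. The Vav-cre DN2-3 library also had the most haemoglobin transcripts, with 797 CPM summed over the erythroid markers Hba-a1, Hbb-bs and Alas2 against 18.4 to 56.9 CPM in the other DN2-3 libraries. Leaving out the 12 Vav-cre and 15 WT cells with at least 2 counts of a haemoglobin gene gave H2-K1 levels of 1312 and 816 CPM and Nlrc5 levels of 78.95 and 20.9 CPM. The thymic stroma markers summed to 275 CPM in Vav-cre DN2-3 against 75.3 to 139 CPM in the other DN2-3 libraries, with Krt5, Krt8 and Foxn1 at 0 in all. In Vav-cre DN2-3 Col1a1 was at 0 too and Psmb11 at 1.37 CPM, so that sum was nearly all Epcam. The part of these markers in the result was not tested. The NK receptor sum of 5.93 CPM and the dendritic sum of 29.7 CPM in Vav-cre DN2-3 were low, as those of WT DN2-3 were (20.9 and 16.7 CPM). The early progenitor sum was 91.3 CPM in Vav-cre DN2-3 against 517.5 CPM in WT DN2-3, and the DN2-3 thymocyte sum was 2162 against 3737 CPM, and their part in the result was not tested either.

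The other DN2-3 mutant libraries were level with WT or lower in most members. In Tcf7-/- DN2-3, 7 of 9 log2 ratios against WT were below 0, the lowest being Tapbp (-0.78), H2-T23 (-0.73) and Nlrc5 (-0.64). H2-K1 was at -0.38 and H2-D1 at -0.49. The Nlrc5 value reached -0.05 over the alternatives run, and Nlrc5 was detected in 15.05% of the Tcf7-/- and 14.8% of the WT cells. A single cell held 53.4% of the WT Nlrc5 counts, which also enter the Lck-cre comparison. With TMM factors, which shifted the comparison by 0.24, B2m at -0.15 lay on the other side of 0 (0.09), as it did by little after thinning (0.004) and with the deposited values (0.01). H2-Q2 was the only member called, 1 of 9 higher and 0 lower, against 3.19% and 10.5% of 8255 genes, and the median was -0.39 against -0.17. Lck-cre likewise had 7 of 9 below 0 as the mean of its plates, with Nlrc5 at -0.84, H2-T23 at -0.71, H2-D1 at -0.68 and H2-K1 at -0.42. Both plates were below WT for B2m, H2-K1, H2-D1, H2-T23, Tap1 and Nlrc5, while Tap2 and Tapbp lay on either side of it. No member reached 2-fold in Lck-cre, where 0.935% of 8447 genes were called higher and 3.48% lower, and the median was -0.48 against -0.08. TMM scaling moved that comparison by 0.11, after which Tapbp at -0.10 was on the other side of 0. Vav-cre DN2-3 was thus above WT and the other 3 libraries below it for B2m (not in the 3 alternatives just given for Tcf7-/-), H2-K1, H2-D1 and Nlrc5. For Nlrc5 the alternatives reached -0.05 in Tcf7-/- and -0.36 in Lck-cre. All of these comparisons share the 1 WT DN2-3 library, and differences between the mutant libraries were not tested.

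H2-Q2 differed from the other 8 members in being high in a single library. It had 0 counts in WT DN1, where 3 counts would be 0.422 CPM, and 1.44 CPM in Tcf7-/- DN1, 5.17 CPM in Vav-cre DN1, 2.21 CPM in WT DN2-3, 2.28 CPM in Vav-cre DN2-3 with 5.56 and 0.342 CPM in those of Lck-cre. In Tcf7-/- DN2-3 it had 123 CPM (116 to 131), from 1029 counts. That is 55.6-fold above WT DN2-3 (30.95 to 112) and 85.2-fold above Tcf7-/- DN1 (39.01 to 233), or 3.44 and 3.54 on the log2 scale with its pseudocount. Counts came from 57 of 93 cells (61.3%, exact interval 50.6% to 71.2%), of which 9 had 1 count, 7 had 2 to 5, 41 had 6 or more and 20 had 20 or more. The highest cell held 10.9% of the counts. In the other 7 libraries together there were 71 counts in 15 of 582 cells, and in WT DN1 0 of 86 cells, which allows a share of cells with a count of up to 3.49% (3 of 86). After thinning, H2-Q2 was found in 33 of 89 Tcf7-/- DN2-3 cells (37.1%) and in 0% to 3.08% of the cells of the other libraries. The result rests on 1 library, whose batch cannot be told apart from its genotype, and the same genotype in the DN1 gate had 6 cells with 1 count each.

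Within Tcf7-/- DN2-3 the summed H2-Q2 level was near the same in cells with and without Pdlim4 or Mki67, while the share of cells with a count was not; these splits were chosen after the values were seen. It was 121 CPM in 56 cells with at least 2 counts of Pdlim4 and 126 CPM in the other 37, with counts in 69.6% and 48.6% of them. It was 125 CPM in 25 cells with at least 2 counts of Mki67, a gene of dividing cells, and 121 CPM in the other 68, with counts in 88% and 51.5% of them. The Pdlim4 and Mki67 cells were deeper, with medians of 75724 against 53429 and of 125912 against 57284 counts per cell, and the part of depth in these shares was not tested. Among 87 Ptcra-positive cells H2-Q2 had 118 CPM, and the 6 Ptcra-negative cells had 256 CPM, of which 98.6% came from 1 cell. Across the 93 cells Spearman's rho of H2-Q2 with H2-K1 was -0.07, and with counts per cell 0.17.

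The genes on either side of H2-Q2 did not share its pattern. H2-Q1, its nearest class I neighbour, had 1 count in Tcf7-/- DN2-3 and 0 to 6 counts elsewhere. H2-Q4 had 5.26 CPM there against 4.42 CPM in WT DN2-3 and 8.998 CPM in WT DN1. H2-Q6 had 302, 284 and 514 CPM in DN1 and 32.6, 9.20, 15.1, 5.73 and 1.20 CPM in the DN2-3 libraries, and H2-Q7, which encodes the nonclassical Qa-2 antigen, had 723, 969 and 1102 CPM and then 188, 98.9, 498, 37.1 and 98.8 CPM. H2-Q7 thus had the gate difference of the classical chains and, like them, its highest DN2-3 level in Vav-cre. Of the other class I-like genes, H2-T3 also had counts in Tcf7-/- DN2-3 and 0 in the other 7 libraries, at 31 counts (3.703 CPM) in 6 cells with 54.8% in 1 cell, and was picked out after its values were seen. Class I genes are near-identical copies in part, so counts can be shared between them, and how reads with several matches were counted is not given in the sources used here. Of stretches of 150 bases, the read length, in the annotated transcript of each member, 0% of those of H2-Q2 and H2-K1 occur in another gene's transcript, 1.79% of those of H2-D1 (in H2-Q1) and 0.831% of those of H2-T23. Of stretches of 50 bases the shares are 8.74% for H2-Q2, 8.79% for H2-K1, 14.3% for H2-D1 and 28.8% for H2-T23, 0% for B2m and Nlrc5, and at most 2.001% for Tap1, Tap2 and Tapbp. These shares count exact copies only. How many counts were shared between the heavy chain genes, H2-Q2 among them, was not measured, and the shares set no limit on it.

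Cells with more of 1 classical chain tended to have more of the other. Across the cells of a library, Spearman's rho between H2-K1 and H2-D1 ranged from 0.27 (Vav-cre DN2-3) to 0.69 (Tcf7-/- DN1), and it was 0.31 to 0.66 after thinning. H2-K1 with B2m gave 0.23 to 0.52. For comparison, the housekeeping pair Actb and Ppia gave 0.01 to 0.33, and H2-K1 with counts per cell gave -0.19 to 0.24. H2-K1 with Tapbp ran from -0.23 in WT DN1 to 0.39 in Tcf7-/- DN1, and with Tap1 from -0.08 to 0.43. These are descriptions over cells that share a library, and the low counts of Tap1 and Nlrc5 limit what a rank can show.

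Among 5529 genes at 50 CPM or more in a library, the 5 with the profile most like B2m over the 8 libraries (Pearson's r of log2 CPM + 10) were H2-Q7 (0.99), the peptide-trimming enzyme gene Erap1 (0.98), Mast3 (0.97), Nfatc2 (0.96) and Btg1 (0.96). For the sum of H2-K1 and H2-D1 they were Nfatc2 (0.99), Sorl1 (0.99), Tspan32 (0.98), Arhgap17 (0.98) and H2-Q7 (0.98). Erap1 had 57.4 to 78.2 CPM in DN1 and 27.2 to 57.7 CPM in DN2-3, and its highest DN2-3 level was in Vav-cre. Tspan32 had 193 to 354 CPM in DN1 and 0 to 41.3 CPM in DN2-3. With 3 libraries in one gate and 5 in the other, such likeness mostly follows the gate.

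Other genes of the pathway were counted from lists of genes that do each step. The immunoproteasome, the form of the proteasome that favours class I peptides, did not follow the heavy chains in its list median, given below. Of its 5 genes (Psmb8, Psmb9, Psmb10, Psme1 and Psme2), 0 passed 2-fold in any of the 8 comparisons. In these, 0.935% to 18% of all genes were called higher and 3.48% to 24.7% lower, so 0 of 5 alone says little. Psmb8 had 745, 947 and 858 CPM in DN1 and 887, 1048, 1154, 917 and 869 CPM in DN2-3, and Psmb9 stayed between 157 and 204 CPM. Psmb10 was lower in DN2-3 in Tcf7-/- (409 and 247 CPM, log2 ratio -0.70) and in Vav-cre (310 and 180.5 CPM, -0.75). In WT it was level (263 and 266 CPM, 0.02). The list's median was 0.02 in the WT gate comparison, -0.21 in Tcf7-/- and -0.03 in Vav-cre, against -0.66, -1.20 and -0.72 for the 9 members. The 3 constitutive subunits Psmb5, Psmb6 and Psmb7 had 0 calls too, with medians of 0.08, 0.46 and 0.65. Of the 6 trimming and chaperone genes (Erap1, Calr, Canx, Pdia3, Tapbpl and Hspa5), 0 were called between gates, with medians of -0.65, -0.41 and -0.45. Over all genes, 16.3%, 8.14% and 15.9% were higher and 11.7%, 17.1% and 24.7% lower in those comparisons. In Vav-cre DN2-3 against WT, Hspa5, the endoplasmic reticulum chaperone BiP, was the only one called, at 586 against 288 CPM. This is 1 of 6 higher, against 5.77% of all genes.

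Other class I-like genes held both directions. In WT 10 of 19 were measured (10 CPM or more in either library), of which H2-Q6, H2-Q7, Fcgrt and Hfe were lower in DN2-3 and the CD1 genes Cd1d1 and Cd1d2, which present lipids, were higher. That is 4 lower and 2 higher of 10, against 11.7% and 16.3% of all genes. Of the Fcgrt and Hfe counts in WT DN1, 93.2% and 91.95% came from 1 cell each, and with each gene's highest cell left out the levels were 1.34 and 1.79 CPM and neither was called. Cd1d1 had 17.6 CPM in WT DN1 and 75.96 CPM in WT DN2-3, and 30.8, 30.1, 68.4 and 44.5 CPM in the mutant DN2-3 libraries. In Tcf7-/- 4 of 7 measured were lower between gates, against 17.1% of all genes, and in Vav-cre 6 of 10, against 24.7%, among them H2-M3 (118 and 51.4 CPM). Without the highest cells these counts were 4 and 4.

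Interferon-stimulated genes, as a list of 20, differed in direction between gates from one genotype to another. In WT 3 were higher and 4 lower in DN2-3 of 18 measured (median 0.36), in Tcf7-/- 1 was higher and 9 lower of 18 (median -1.04), and in Vav-cre 10 were higher and 2 lower of 20 (median 1.001). The shares over all genes were 16.3% and 11.7%, 8.14% and 17.1%, and 15.9% and 24.7%. Within DN2-3, in Tcf7-/- 9 of 18 were lower than WT and 0 higher (median -1.04), against 10.5% of all genes lower, and in Lck-cre 7 of 19 were lower and 0 higher (median -0.89), against 3.48%. With each gene's highest cell left out, 6 and 5 were lower, with medians of -0.79 and -0.71. Both counts are against the same WT library. In Tcf7-/- the 9 were Isg15, Ifit1, Ifit3, Irf7, Oasl2, Mx1, Bst2, Irgm1 and Usp18, and in Lck-cre the 7 were Isg15, Ifit1, Ifit3, Oasl2, Mx1, Ifitm3 and Usp18. Ifit1 had 69.1 CPM in WT, 5.73 CPM in Tcf7-/-, 34.5 CPM in Vav-cre, and in Lck-cre 14.2 and 4.62 CPM, with 51.5% of the WT counts in 1 cell. Isg15 had 70.1, 26.6, 79.9, 18.98 and 39.2 CPM in the same order. In Vav-cre DN2-3 5 of 20 were higher than WT (Ifit2, Ifitm3, Igtp, Iigp1 and Usp18) and 0 lower, with a median of 0.07, against 5.77% of all genes higher. With each gene's highest cell left out, 4 were higher, Ifit2 no longer among them, and 1 was lower (Irf7), with a median of 0.15. Ifitm3, a membrane protein that restricts viral entry, had 550 CPM there, 63.3 CPM in WT and 11.6 to 43.2 CPM in the other DN2-3 libraries.

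Among 25 regulators of class I transcription, Nfkb1, which encodes the p50 subunit of NF-kappa-B, had the highest ratio in the library with the highest DN2-3 class I levels. It had 446 CPM in Vav-cre DN2-3 against 63.7 CPM in WT, 76.6 CPM in Tcf7-/- and 59.9 and 71.2 CPM in Lck-cre, with counts in 65 of 76 Vav-cre and 38 of 88 WT cells. In DN1 it had 104 CPM in WT, 377 CPM in Tcf7-/- and 324 CPM in Vav-cre. In Vav-cre DN2-3 against WT, 3 of 22 measured regulators were higher (Irf8, Nfkb1 and Eed) and 0 lower, against 5.77% and 10.5% of all genes. Jak1, a kinase of interferon receptors, was lower than WT in Tcf7-/- (149 against 346 CPM) and Lck-cre (121 and 203 CPM), and the regulators as a list had 2 of 23 and 1 of 22 lower and 0 higher, shares near the 10.5% and 3.48% of all genes that were lower. Irf1, an activator of Tap1 and other class I genes, stayed between 57.4 and 96.7 CPM in DN2-3 and between 90.5 and 183 CPM in DN1. Between gates in WT, Ezh2 (264 against 27.98 CPM) and Nfya were higher in DN2-3, and Irf8, Jak2 and Relb were lower, of 23 measured. These 2 and 3 of 23 compare with 16.3% of all genes higher and 11.7% lower. With each gene's highest cell left out, Nfya was no longer called and Nfyb was. Irf8 in WT DN1 then went from 122.9 to 38.7 CPM and was still called lower.

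**Figure D5:**
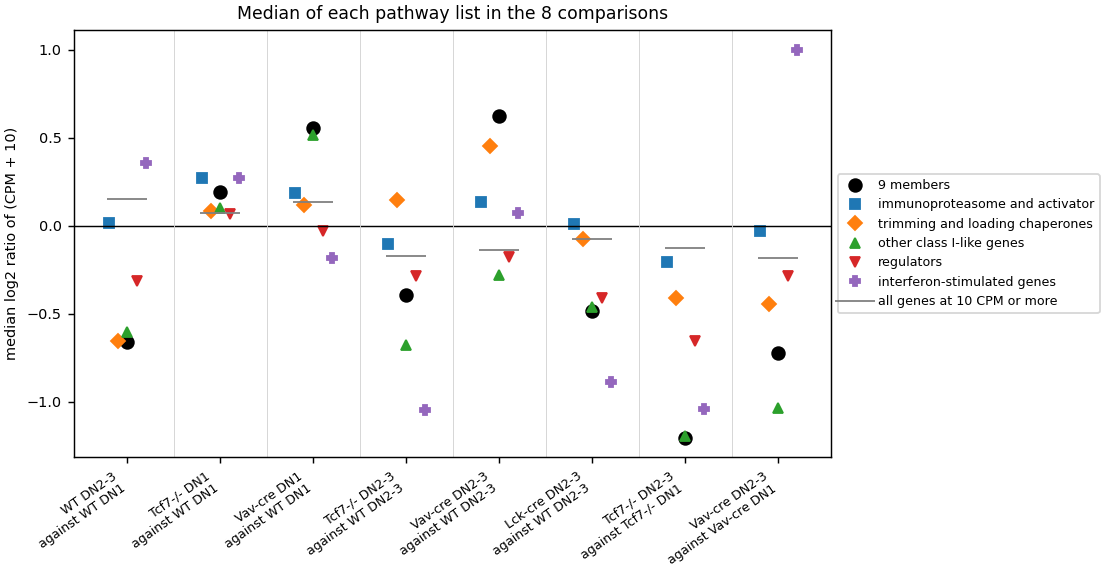
Median log2 ratio of (CPM + 10) of the 9 members and of 5 pathway lists in the 8 comparisons, with a grey bar for the median of all genes at 10 CPM or more. The members are at -0.66, -1.20 and -0.72 in the gate comparisons of WT, Tcf7-/- and Vav-cre, and the immunoproteasome list is at 0.02, -0.21 and -0.03.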

How the data were processed

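Per the labels' protocols, single-cell cDNA was made with a modified STRT method and read as 150-base pairs. Per the submitters' processing notes, TopHat2 2.1.1 and HTSeq were used, with mm10 as genome (GRCm38 is also named, except for the Tcf7-/- cells). The annotation, and whether molecular identifiers were collapsed, are not given in the sources used here. The table the authors deposited holds unnormalized counts, as whole numbers for every gene in every cell. The authors also deposited log2(TPM/10+1) values, which matched the counts times a constant per cell to within 0.157%, and these log2 values served as an alternative only. All plates use the same 96 barcode numbers, so a barcode names a cell only within its plate. Cells were sorted singly, and no doublet caller was run.

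From the counts, 27 entries with a date in place of a symbol (0.141% of counts) were left out. Cells with 1000 or more genes detected were used, counts were summed per library, and CPM, ratios of CPM + 10 and exact 95% intervals (Poisson, conditional binomial for ratios, Clopper-Pearson for shares) were computed with Python 3.11.15, pandas 2.3.3 and scipy 1.17.1. A gene counted as called at 2-fold, among genes that reached 10 CPM in either library compared. Where a library had 0 counts, a floor of 3 counts per library was used. Cells were not used as replicates, so there are no tests between groups. The steps were checked on simulated counts. TMM factors came from edgeR 4.0.16 and served only as an alternative. Other alternatives were all cells, at least 2000 genes per cell, equal weights, thinning to 10000 counts, a pseudocount of 1 CPM, the highest cell left out, counts of 1 to 5 set to 0, receptor-positive DN1 cells only and each Lck-cre plate alone. All 9 members are named; pathway genes are named when called or when they define a step. The members, lists and markers were chosen with earlier results of these data known, and 1 marker gene is not reported here. Positions come from GENCODE M21 and promoters from RefSeq.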

Additional observations from a re-analysis of the deposited data

Results flagged for a closer look

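For 4 genes the same genotype label lay on opposite sides of WT in the 2 gates with both values at least 2-fold apart, which makes 5 pairs of gene and genotype. In 6 other pairs (B2m, H2-K1, H2-D1, H2-T23 and Tapbp in Tcf7-/- and Tap1 in Vav-cre) the sides were opposite too, but under 2-fold apart. Each value rests on 1 library, and the difference between gates was not tested. On the log2 scale, H2-T23 in Vav-cre was 0.83 in DN1 and -0.82 in DN2-3, although with NK receptor-positive DN1 cells alone the DN1 value was -0.06. Tap1 in Tcf7-/- was 0.83 in DN1 and -0.39 in DN2-3. Tap2 in Vav-cre was -0.34 in DN1 and 0.89 in DN2-3. Nlrc5 in Tcf7-/- was 0.63 in DN1 and -0.64 in DN2-3. Its DN2-3 value reached -0.05 over the alternatives, with counts in 15.05% of the Tcf7-/- and 14.8% of the WT cells. Of the WT counts there, 53.4% came from 1 cell. Nlrc5 in Vav-cre was -0.32 in DN1 and 1.52 in DN2-3, and its DN1 value was above 0 in 4 alternatives, at 0.11 to 1.30, the highest with NK receptor-positive cells alone.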

How the results depend on the processing

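Of 95 recomputed medians over the members, 0 changed sign and 93 moved by less than the pooled SD between the Lck-cre plates (0.27). The others were Vav-cre DN1 against WT, 0.17 without the highest cell of each gene, and Vav-cre DN2-3 against Vav-cre DN1, -1.01 with receptor-positive DN1 cells only. Of 95 counts of members past 2-fold, 81 stayed within 1.5 times. With a pseudocount of 1 CPM the count was 4 for the WT gates, 1 for Tcf7-/- DN1, 1 for Vav-cre DN1, 2 for Tcf7-/- DN2-3 and 1 for Lck-cre. With receptor-positive cells it was 1 for Tcf7-/- DN1 and 3 for Vav-cre DN1, which also had 2 with at least 2000 genes per cell and 1 after thinning. Vav-cre DN2-3 against WT had 2 with equal weights, 4 with TMM factors, 2 with low counts set to 0 and 2 from the deposited log2 values. Without H2-Q2, an alternative chosen after seeing the data, Tcf7-/- DN2-3 against WT had 0. Of 711 single-gene values, 633 stayed within that SD. A sign change came up in 43 of the 711, of which 41 were from values under 0.35 on the log2 scale. The others were H2-T23 in Vav-cre DN1 against WT (0.83, then -0.06) and Nlrc5 between gates in Vav-cre, the only called one (1.05, then -0.60), both with receptor-positive DN1 cells only. Leaving out either Lck-cre plate gave medians of -0.59 to -0.33 and a count of 0. No paired analysis was possible because the results come from no test and 1 library stands for each group but Lck-cre. Causes were not tested. Nlrc5 and H2-Q2 had low counts in most libraries, and Vav-cre DN1 had the fewest summed counts (1547512). How far depth limits each result was not compared.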
